A study of Mus musculus with 72 samples.

Results

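Folate one-carbon genes were examined as a set of 8, taken by symbol: Shmt1, Shmt2, Mthfd1, Mthfd2, Mthfd1l, Aldh1l1, Aldh1l2 and Tyms. All 8 were among the 22823 genes of the liver count table, and 7 were among the 15759 genes of the table of the suprachiasmatic nucleus (SCN), the seat of the brain's master clock in the hypothalamus. Shmt1 is not in the SCN table. All 8 passed the filter on low counts in liver, which left 20249 genes, and all 7 passed it in SCN, where it removed no gene.

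The study measured polyadenylated RNA by RNA-seq in liver and SCN of C57BL/6J mice, which were 8 to 12 weeks old when obtained. For 11 days they had free access to a control diet or to one of the same energy content that lacks methionine and choline (methionine-choline-deficient, MCD). Days 1 to 10 had 12 h of light and 12 h of dark, day 11 was spent in constant darkness, and mice were killed on that day at 6 circadian times (CT) 4 h apart, from CT00 to CT20. There were 24 groups, 1 for each combination of tissue, diet and time, each with 2 male mice and 1 female, which made 18 libraries per diet in each tissue. All groups shared the strain, the single housing and the darkness of the last day, and no genetic change is named for any group. Liver RNA came from the centre of the left lobe. The SCN was cut from stained brain sections by laser microdissection, so a sample can hold neighbouring tissue. The growth protocol mentions males alone. The sample labels, which were followed here, give 6 females per diet and tissue.

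Folate carries one-carbon units that are used to make purines, thymidylate and, through the methyl branch, methionine from homocysteine. The pathway runs in parallel in the cytosol and in mitochondria, and much of the carbon enters from serine in the mitochondria and leaves them as formate. Liver is rich in these enzymes and also feeds the pathway from choline, by way of dimethylglycine and sarcosine, and from histidine. The MCD diet withholds both methionine and choline and is widely used to produce fatty, inflamed liver in mice.

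The members fall by compartment. In the cytosol, Shmt1 (serine hydroxymethyltransferase 1) moves a carbon between serine and folate, Mthfd1 interconverts the folate forms between formate and methylene-tetrahydrofolate, and Aldh1l1 oxidises 10-formyl-tetrahydrofolate to carbon dioxide. In mitochondria, the same steps are served by Shmt2, by Mthfd2 and Mthfd1l together, and by Aldh1l2. Tyms (thymidylate synthase) uses methylene-tetrahydrofolate to make thymidylate for DNA.

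In GENCODE M21 (build GRCm38), which lists the same gene identifiers apart from the version, all 8 are protein-coding. The cytosolic genes lie at chr11:60788104-60811718 on the minus strand (Shmt1), chr12:76255298-76319803 on the plus strand (Mthfd1) and chr6:90486427-90600203 on the plus strand (Aldh1l1). The mitochondrial genes lie at chr10:127517123-127522444 on the minus strand (Shmt2), chr6:83305691-83325908 on the minus strand (Mthfd2), chr10:3973118-4167081 on the plus strand (Mthfd1l) and chr10:83487450-83534140 on the minus strand (Aldh1l2). Tyms lies at chr5:30058202-30073617 on the minus strand. Exons of Aldh1l2 share 1056 bases with D10Wsu102e on the opposite strand, and exons of Aldh1l1 share 499 bases with the antisense gene Gm15756. A lincRNA on the same strand, Gm45901, shares 105 bases with Aldh1l1. Shmt1 shares 184 exonic bases with Smcr8, Mthfd1 shares 37 with Gm47525 and Shmt2 shares 32 with Ndufa4l2, each on the opposite strand. Whether reads were counted by strand is not stated in the labels or file headers, and these shared stretches leave part of the 5 genes' counts uncertain. Mthfd2, Mthfd1l and Tyms share no exonic base with another gene.

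RefSeq (GRCm38.p6) gave an upstream window for 7 of the 8 members. The windows of 5 are printed, 250 bases before the RefSeq start, 5′ to 3′ on the gene's strand, to set 2 cytosolic genes whose transcripts fell in liver on MCD (Shmt1, Mthfd1) beside 2 mitochondrial genes whose transcripts rose (Mthfd2, Mthfd1l), and Tyms, the one window with an E-box. RefSeq starts need not be the ends of the GENCODE genes. Capitals mark the motifs found: GGGCGG or its complement (GC box), CCAAT or its complement (CCAAT box) and CACGTG (E-box).
Shmt1 (chr11:60811266-60811515, minus strand): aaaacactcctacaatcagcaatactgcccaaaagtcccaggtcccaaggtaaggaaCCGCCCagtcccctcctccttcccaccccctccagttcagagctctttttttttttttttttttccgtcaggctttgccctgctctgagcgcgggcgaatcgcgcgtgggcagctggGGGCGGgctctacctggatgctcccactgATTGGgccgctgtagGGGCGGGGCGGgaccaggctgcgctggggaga
Mthfd1 (chr12:76254982-76255231, plus strand): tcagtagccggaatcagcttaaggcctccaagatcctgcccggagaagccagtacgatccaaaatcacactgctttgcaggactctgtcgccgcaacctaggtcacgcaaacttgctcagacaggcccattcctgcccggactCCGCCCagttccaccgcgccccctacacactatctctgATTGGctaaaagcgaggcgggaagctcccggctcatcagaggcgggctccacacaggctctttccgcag
Mthfd2 (chr6:83317605-83317854, minus strand): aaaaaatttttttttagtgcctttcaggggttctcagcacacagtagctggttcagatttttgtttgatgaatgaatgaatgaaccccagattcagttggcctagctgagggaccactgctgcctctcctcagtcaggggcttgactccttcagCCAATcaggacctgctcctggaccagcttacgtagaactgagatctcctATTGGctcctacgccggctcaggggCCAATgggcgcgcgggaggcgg
Mthfd1l (chr10:3972825-3973074, plus strand): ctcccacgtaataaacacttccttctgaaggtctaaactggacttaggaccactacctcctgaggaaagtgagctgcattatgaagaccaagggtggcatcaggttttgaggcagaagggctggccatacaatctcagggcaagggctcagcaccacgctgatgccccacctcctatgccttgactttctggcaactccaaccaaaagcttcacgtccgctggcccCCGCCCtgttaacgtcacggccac
Tyms (chr5:30073626-30073875, minus strand): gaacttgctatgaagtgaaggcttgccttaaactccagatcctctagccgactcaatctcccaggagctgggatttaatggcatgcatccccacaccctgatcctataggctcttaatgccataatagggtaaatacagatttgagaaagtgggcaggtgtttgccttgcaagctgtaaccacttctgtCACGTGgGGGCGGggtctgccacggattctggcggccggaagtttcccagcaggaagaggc
Motifs were searched on both strands of these 250 bases in 32851 RefSeq windows. The GC box, GGGCGG, was present in 5 of the 7 members' windows (Shmt1, Mthfd1, Mthfd1l, Aldh1l1 and Tyms) and in 35.7% of all windows. In the Shmt1 window its copies nearest the start overlap. The CCAAT box was present in 4 (Shmt1, Mthfd1, Mthfd2 and Aldh1l1) and in 37.4% of all windows, and Mthfd2 held 3 copies, at 96, 47 and 22 bases before the start. The E-box CACGTG, the sequence to which the clock proteins CLOCK and BMAL1 bind, was present in Tyms alone among the 7, 61 bases before the start and close to a GC box, and in 7.15% of all windows. The core letters TGATGNAA, which ATF4 complexes bind, were in no member's window and in 3.97% of all windows. The D-box core TTATGNAA was in no member's window and in 3.38% of all windows. These are matches of letters in a short window and say nothing of binding, and a missing match says only that the letters are not in the window.

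Liver libraries held 52.6 to 86.74 M gene counts and SCN libraries held 23.35 to 79.81 M. Hepatocyte markers (Alb, Apoa1, Cps1, Ttr and Serpina1c) summed to 55074 to 119144 CPM (counts scaled to the size of the library) in liver, and SCN neuron markers such as Avp, Vip and Six6 to 1629.6 to 4212 CPM in SCN. Of the clock genes, Dbp peaked at CT 9.26 in liver and CT 5.97 in SCN on the control diet. The control males at CT08 have columns without a replicate number in both tables, so the letters a and b stand for them (control CT08 a, control CT08 b). In liver, control CT08 a stood apart from the other controls: it held the lowest control level of Shmt1, Shmt2, Mthfd1 and Aldh1l1 and the highest of Mthfd1l and Aldh1l2. It is kept as labelled, and liver results are given with and without it. Liver libraries also fell into 2 kinds by the mitochondrial transcript mt-Nd6, 21 libraries at 32.9 to 133 CPM (8 control, 13 MCD) and 15 at 379 to 1039 CPM (10 control, 5 MCD), and diet effects are given within each kind below.

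Set against exon length (the union of a gene's GENCODE M21 exons), the members' levels in control liver covered a wide range. Aldh1l1 had the highest level, 286 ± 64.5 CPM per kb of exon (SD, n = 18). Shmt2 (73.7 ± 9.26), Shmt1 (69.1 ± 14.8) and Mthfd1 (56.4 ± 7.42 CPM per kb) followed. The SD ranges of neighbours in this order overlapped, and levels of different genes were not tested against each other. The remaining members were at about 1 CPM per kb or less: Tyms at 0.906 ± 0.0967, Mthfd2 at 0.567 ± 0.454, Mthfd1l at 0.287 ± 0.351 and Aldh1l2 at 0.109 ± 0.0569. Adult control liver thus held the cytosolic enzymes' transcripts and those of Shmt2 at high levels, and those of the mitochondrial enzymes Mthfd2, Mthfd1l and Aldh1l2 near the bottom of the set.

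The order differed in SCN. Aldh1l1, in the brain a widely used marker of astrocytes, again had the highest level per length, 10.4 ± 0.880 CPM per kb (SD, n = 18). Mthfd1 (7.92 ± 1.02) and Mthfd2 (7.31 ± 1.51 CPM per kb) had overlapping SD ranges, and their difference was not tested. Shmt2 was at 3.63 ± 0.830, Mthfd1l at 2.25 ± 0.999, Tyms at 0.528 ± 0.148 and Aldh1l2 at 0.502 ± 0.155 CPM per kb. A model of all 72 libraries, scaled together by TMM, compared the tissues on the control diet. Its folds are not the ratios of the levels above, which were scaled within each tissue. Liver exceeded SCN for Aldh1l1 (54.7-fold), Shmt2 (40.0-fold), Mthfd1 (13.3-fold) and Tyms (3.13-fold). The opposite held for Mthfd2 (6.36-fold lower in liver), Mthfd1l (5.62-fold lower) and Aldh1l2 (2.29-fold lower). All 7 differences were called (adjusted p of 1.04e-07 or below, edgeR's quasi-likelihood test), as were 90.4% of the 14491 genes tested, so a call here sets a member apart from few genes. With library totals in place of TMM, the median log2 difference of all genes, liver minus SCN, moved from −0.04 to −0.75 and the split from 6388 higher and 6713 lower to 3952 and 9228. The members' log2 differences were then 5.06 for Aldh1l1 (5.77 with TMM), 4.61 for Shmt2 (5.32), 3.03 for Mthfd1 (3.74), 0.94 for Tyms (1.65), −3.36 for Mthfd2 (−2.67), −3.18 for Mthfd1l (−2.49) and −1.90 for Aldh1l2 (−1.20), and all 7 were again called. For Shmt1, reads in exon bins (stretches of exon counted separately) gave 0 to 54 counts per SCN library on the control diet and 0 to 44 on MCD, against 12632 to 27952 in control liver.

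**Figure D1:**
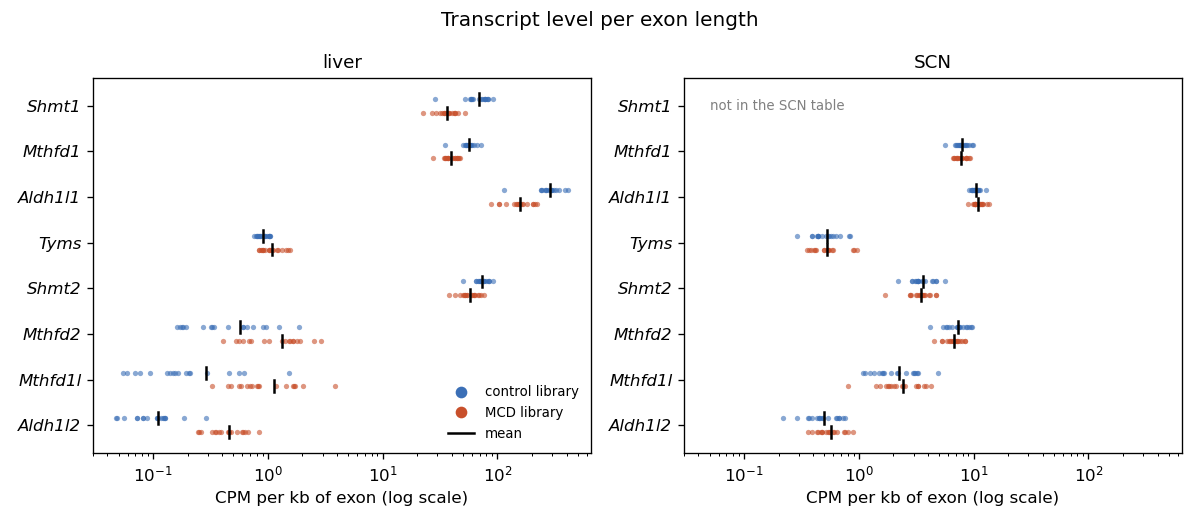
Level of each gene in CPM per kb of exon (log axis) in liver and SCN, with a point for each library (blue control, orange MCD) and black ticks at the means of 18 libraries; Shmt1 is not in the SCN table, and the MCD library listed at 0 Tyms counts in the gene table cannot be drawn on a log axis. In liver, Aldh1l1, Shmt1, Shmt2 and Mthfd1 lie far to the right of the other 4 genes (286 CPM per kb for Aldh1l1 and 0.109 for Aldh1l2 on control), and in SCN the 7 genes lie closer together.

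In liver, MCD moved the members in opposite directions. The split followed compartment only in part. It also followed level, since the 4 genes with the highest control levels fell and the 4 with the lowest rose. What the split reflects was not tested. The 3 cytosolic genes Shmt1, Mthfd1 and Aldh1l1 fell 1.43- to 1.88-fold, and 3 of the 4 mitochondrial genes, Mthfd2, Mthfd1l and Aldh1l2, rose 2.54- to 4.63-fold. Shmt2, the mitochondrial serine hydroxymethyltransferase, did not go with the latter and fell 1.30-fold, and Tyms rose 1.19-fold. All 8 were called (adjusted p under 0.05, edgeR's quasi-likelihood test on the mean of MCD minus control over the 6 times). Calls were frequent in this comparison, 46.6% of the 20249 genes, 25.3% higher and 21.2% lower. The median log2 change was −0.06 over the 8 members and 0.02 over all genes. With library totals in place of TMM scaling the median of all genes was 0.27, with 10633 genes called higher and 1540 lower (5130 and 4296 with TMM). The log2 change was then −0.12 for Shmt2 (−0.37 with TMM), −0.26 for Mthfd1 (−0.52) and 0.51 for Tyms (0.25), and all 8 members kept their direction and were called. Since whole tissue was sequenced, fewer cells of a type and less RNA per cell cannot be told apart for any of these changes.

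Of the cytosolic genes, Shmt1 spanned 112 to 358 CPM in the 18 control livers (median 284) and 86.7 to 203 CPM on MCD (median 142). The control mean was 268 ± 57.5 CPM and the MCD mean 143 ± 27.3 CPM (SD, n = 18 each). Of the 18 controls, 17 lay above every MCD library, the exception being control CT08 a at 112 CPM. The log2 change was −0.91 ± 0.10 (SE, adjusted p = 5.36e-08, edgeR's quasi-likelihood test), a level 1.88-fold lower on MCD. Mthfd1 behaved alike, with 157 to 320 CPM on control (median 252) and 123 to 209 CPM on MCD (median 173). Again 17 of 18 controls lay above every MCD library, and the log2 change was −0.52 ± 0.07 (adjusted p = 1.38e-06, 1.43-fold lower). Aldh1l1, the member with the highest level per length in liver, ran from 512 to 1875 CPM on control (median 1302) and from 395 to 994 CPM on MCD (median 698). Here too 17 of 18 controls exceeded all MCD libraries, and the log2 change was −0.88 ± 0.12 (adjusted p = 1.6e-06, 1.84-fold lower).

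Shmt2 ran from 157 to 286 CPM on control (median 227) and from 118 to 235 CPM on MCD (median 177). The ranges overlapped broadly, and 7 of 18 controls lay above every MCD library. Its log2 change, −0.37 ± 0.06 (SE, adjusted p = 6.97e-06, edgeR's quasi-likelihood test), was called and amounted to a level 1.30-fold lower.

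The genes that rose started from low levels. Mthfd1l, the mitochondrial enzyme that releases formate, had 0.241 to 6.74 CPM on control (median 0.710) and 1.45 to 17.0 CPM on MCD (median 3.60). Behind these stood 12 to 681 counts per control library and 84 to 1383 per MCD library. Its log2 change was 2.21 ± 0.22 (SE, adjusted p = 1.29e-08, edgeR's quasi-likelihood test), 4.63-fold higher on MCD, and 14 of 18 controls lay below every MCD library. Aldh1l2 had 0.354 to 2.19 CPM on control (median 0.810) and 1.86 to 6.24 CPM on MCD (median 3.39). All controls but control CT08 a lay below every MCD library, and the log2 change was 2.12 ± 0.20 (adjusted p = 2.67e-09, 4.35-fold higher). Mthfd2, the mitochondrial methylene-tetrahydrofolate dehydrogenase, had 0.562 to 6.50 CPM on control (median 1.38) and 1.43 to 10.2 CPM on MCD (median 4.75). Its ranges overlapped more, with 9 of 18 controls below every MCD library, and the log2 change was 1.34 ± 0.20 (adjusted p = 5.05e-06, 2.54-fold higher). Even after the rise these transcripts stayed well below those of the cytosolic genes: on MCD, Mthfd2 was at 1.32, Mthfd1l at 1.14 and Aldh1l2 at 0.459 CPM per kb, against 156 for Aldh1l1, 39.4 for Mthfd1 and 36.7 for Shmt1.

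Tyms had 4.61 to 6.37 CPM on control (median 5.44) and 5.06 to 9.43 CPM on MCD (median 6.33). The ranges overlapped, with 9 of 18 MCD libraries above every control, and the log2 change was 0.25 ± 0.06 (SE, adjusted p = 0.00214, edgeR's quasi-likelihood test). Without the female libraries (replicate 3 of every group) the Tyms change was 0.20 and was not called (adjusted p = 0.0876). No other member lost its call for diet there.

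**Figure D2:**
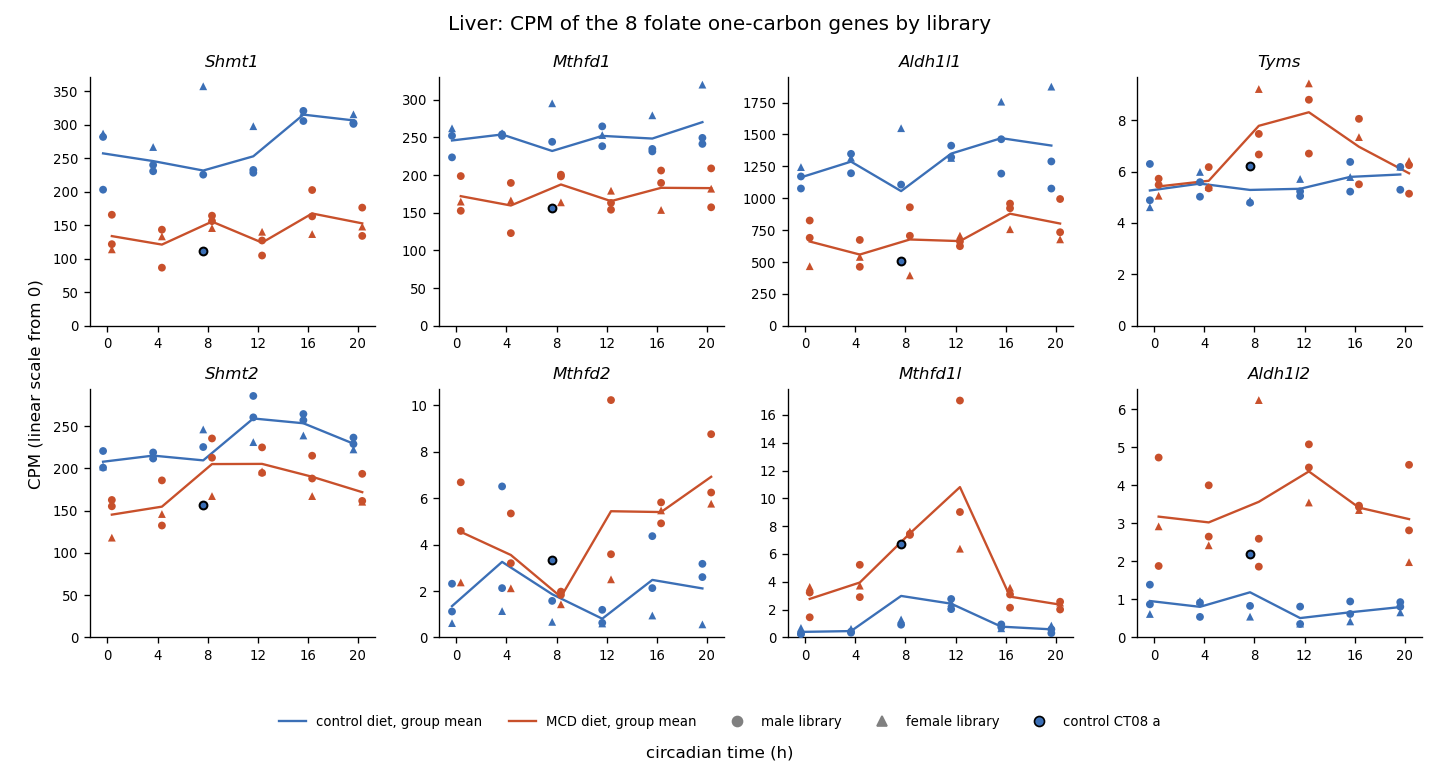
CPM of the 8 genes in each liver library against circadian time in h (blue control, orange MCD, circles males, triangles females), where lines join group means of 3 libraries and the ringed circle is control CT08 a. Shmt1, Mthfd1 and Aldh1l1 lie lower on MCD than on control apart from the ringed library (112, 157 and 512 CPM), while Mthfd1l and Aldh1l2 lie higher.

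Leaving out control CT08 a, which lay within the MCD range for Shmt1, Shmt2, Mthfd1, Aldh1l1, Mthfd1l and Aldh1l2, separated the diets fully for 4 genes. The lowest remaining control was 203 CPM for Shmt1, 223 for Mthfd1 and 1076 for Aldh1l1, all above the highest MCD library, and the highest remaining control for Aldh1l2, 1.39 CPM, was below the lowest MCD library. In that comparison of 17 with 18 libraries, 0.968% of all genes were fully separated with lower values on MCD and 0.711% with higher values (with all 18 controls, 0.222% and 0.0889%, and no member). All 8 members were again called without it, as were 48.6% of the genes then tested. The log2 changes became −0.98 for Shmt1, −0.57 for Mthfd1, −0.95 for Aldh1l1, −0.42 for Shmt2, 1.41 for Mthfd2, 2.47 for Mthfd1l, 2.23 for Aldh1l2 and 0.27 for Tyms.

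Within the 2 kinds of liver library the direction was the same for each member. In libraries with low and with high mt-Nd6, the difference of mean log2 CPM, MCD minus control, was −0.79 and −1.03 for Shmt1, −0.49 and −0.57 for Mthfd1, −0.85 and −0.90 for Aldh1l1, and −0.36 and −0.40 for Shmt2. It was 1.63 and 1.21 for Mthfd2, 1.86 and 2.65 for Mthfd1l, 2.20 and 1.97 for Aldh1l2, and 0.23 and 0.30 for Tyms. All 8 members were also called in a fit that included this kind as a term. Marker genes of liver cell types are given beside the 25.3% of all genes called higher and the 21.2% called lower. Of the hepatocyte markers 4 of 5 fell and none rose, while their sum, dominated by Alb, ran from 78206 to 118392 CPM on control and from 55074 to 119144 on MCD. All 6 liver macrophage markers in the table rose (sum 247 to 595 CPM on control, 328 to 729.7 on MCD). Of the stellate cell markers 1 of 4 rose (43.7 to 218 and 58.9 to 302 CPM), of the endothelial markers 2 of 4 rose and 1 fell (154 to 226 and 172 to 261 CPM), and of the cholangiocyte markers 1 of 4 rose (5.01 to 11.0 and 5.93 to 21.0 CPM). With library totals, 2 of 5 hepatocyte markers fell and 1 rose, and 4 of 4 stellate cell and 3 of 4 endothelial markers rose, beside 7.61% and 52.5% of all genes. The part of these cell types in the members' changes was not tested.

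**Figure D3:**
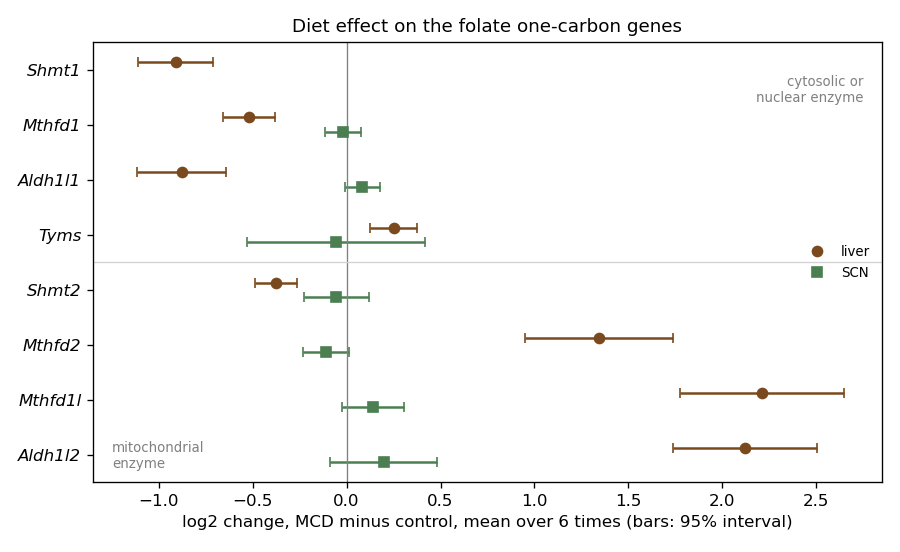
Log2 change, MCD minus control, averaged over the 6 times, with 95% intervals, in liver (brown circles) and SCN (green squares). In liver Shmt1, Mthfd1, Aldh1l1 and Shmt2 lie left of 0 (−0.91 for Shmt1) and Mthfd2, Mthfd1l, Aldh1l2 and Tyms lie right of 0 (2.21 for Mthfd1l), while the 7 SCN intervals all include 0.

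Diet effects at single times, with 3 libraries a group, were less precise. At CT00, 6 of 8 members were called (12.6% of all genes), as were 6 at CT04 (18.2%), 7 at CT12 (15.2%), 4 at CT16 (12.5%) and 6 at CT20 (11.3%). The members were chosen with earlier results of these data known, so larger shares than those of all genes are no finding about them. At CT08 none of the 8 was called by edgeR's quasi-likelihood test, while 5 had an unadjusted p under 0.05. DESeq2 called 2 there and limma-voom 0, and of all genes 1.3% were called. Without control CT08 a, 5 were called at CT08 (5.86% of genes): Shmt1 (−0.90), Aldh1l1 (adjusted p = 0.0247, edgeR's quasi-likelihood test), Mthfd1l (2.80), Aldh1l2 (2.41) and Tyms (0.68). Shmt1, Mthfd1l and Aldh1l2 were each called at 5 of 6 times, Shmt2 and Mthfd1 at 4, Mthfd2 at 3, Aldh1l1 at 2 and Tyms at 1. With library totals in place of TMM scaling, Shmt2 kept its call at CT00 alone (adjusted p of 0.112, 0.261 and 0.173 at CT04, CT16 and CT20, edgeR's quasi-likelihood test) and Mthfd1 at CT04 alone (0.14, 0.128 and 0.0657 at CT00, CT12 and CT20), while Mthfd2 was also called at CT16 (0.0292). The calls of Shmt2 at CT16 and CT20 and of Mthfd1 at CT00 lay just under the threshold (adjusted p = 0.0479, 0.049 and 0.0495, edgeR's quasi-likelihood test). They were lost in 18, 20 and 18 of the 36 fits that each left out 1 library, many of them of another time, and also with no count filter, with no sex term and with mt-Nd6 kind added to the model. The 3 libraries of each diet did not overlap at 6 times for Mthfd1l, at 5 for Shmt1, Shmt2, Mthfd1, Aldh1l1 and Aldh1l2 (CT08 being the exception), at 4 for Mthfd2 and at 2 for Tyms. Of all genes, the shares separated in this way with higher values on MCD were, from CT00 to CT20, 14.6%, 17.7%, 6.67%, 15.7%, 20.4% and 16%, and with lower values 13.3%, 16.1%, 6.57%, 14.1%, 14.8% and 13.1%.

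For Mthfd2 and Tyms the estimated effect was small at several times. Mthfd2 had log2 changes of 0.23 and 0.09 at CT04 and CT08 (95% intervals −0.70 to 1.16 and −0.86 to 1.04), against 1.39 at CT16, 1.77 at CT00, 1.95 at CT20 and 2.64 at CT12. At CT12 its 3 control libraries were at 0.601, 0.629 and 1.19 CPM and its MCD libraries at 2.50, 3.58 and 10.2 CPM, while at CT08 they were at 0.671, 1.57 and 3.34 CPM and at 1.43, 1.83 and 1.97 CPM. At CT04 the control libraries were at 1.14, 2.12 and 6.50 CPM and the MCD libraries at 2.12, 3.20 and 5.34 CPM. The small estimates leaned on single libraries: without control CT04 2, the library at 6.50 CPM, the change at CT04 was 0.93, and without control CT08 a that at CT08 was 0.58, neither called. These were the upper ends, and the lowest values without 1 library were −0.05 at CT04 and −0.21 at CT08. Tyms stood higher on MCD at CT08 (0.55, not called) and CT12 (0.64, adjusted p = 0.00805, edgeR's quasi-likelihood test), with values of 0.00 to 0.26 at the other times. Aldh1l2 ranged from 1.70 at CT08 to 3.10 at CT12, Mthfd1l from 1.29 at CT08 to 3.10 at CT04, and Shmt1 from −1.03 at CT04 to −0.55 at CT08. Over the single libraries left out, the value at CT08 ran from 0.79 to 2.41 for Aldh1l2. It ran from 0.87 to 2.80 for Mthfd1l and from −0.90 to −0.14 for Shmt1. Whether the effect of diet differed between times beyond a 24 h rhythm was not tested.

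Calls at single times leaned on single libraries. The counts of all genes called moved as well, from 1229 to 3059 at CT00 and from 37 to 1212 at CT08 over the libraries left out (2550 and 263 with all). Left out in turn, the 36 liver libraries gave 4 to 6 calls at CT04, 0 to 5 at CT08 and 3 to 8 at CT12, and 1 to 7, 1 to 6 and 2 to 7 at CT00, CT16 and CT20. At CT00 the count was 1 without control CT00 1, 2 without MCD CT00 1, and 3 without control CT00 3 or MCD CT00 3. At CT08 it was 1 without MCD CT08 1, and at CT12 it was 3 without MCD CT12 2. At CT16 it was 1 without control CT16 1 or MCD CT16 3, and 2 without control CT16 3 or MCD CT16 2. At CT20 it was 2 without MCD CT20 1 and 3 without any one of the 3 control libraries or MCD CT20 3. The calls averaged over the 6 times did not depend on any one library: 8 of 8 members were called in each of the 36 fits.

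**Figure D4:**
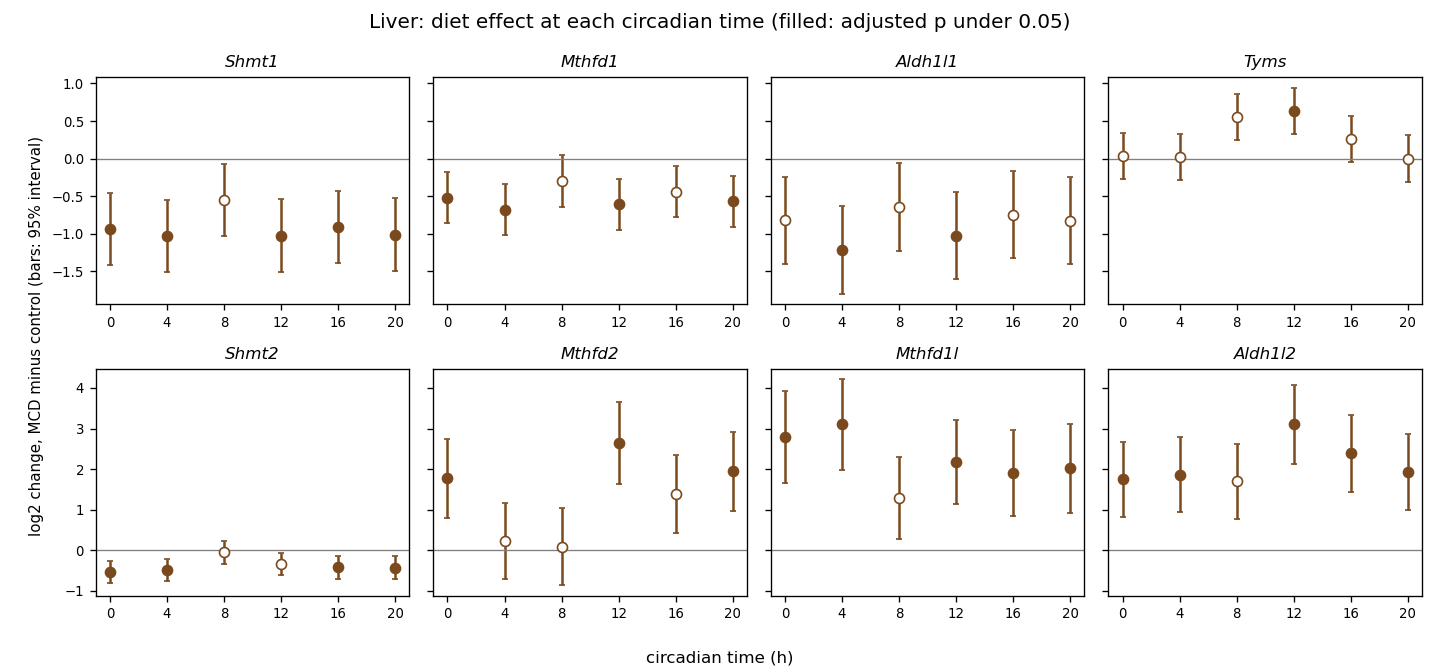
Log2 change, MCD minus control, of each gene at each circadian time (h) in liver, with 95% intervals, where filled points have an adjusted p under 0.05 and open points do not. Mthfd2 lies at 0.23 and 0.09 at CT04 and CT08 and at 2.64 at CT12, and at CT08 all 8 points are open.

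A 24 h rhythm in control liver was called for 1 of 8 members, against 17.8% of genes. This was Mthfd1l, whose group means were 2.98 CPM at CT08 and 2.43 CPM at CT12, and between 0.397 CPM (CT00) and 0.776 CPM (CT16) at the other times. The fitted 24 h component had an amplitude of 1.47 on the log2 scale, a fold of 7.71 between peak and trough, and its peak at CT 10.8 (adjusted p = 0.000252, edgeR's quasi-likelihood test). The mean at CT08 held control CT08 a at 6.74 CPM beside 0.915 and 1.30 CPM. Without that library the amplitude was 1.16 (adjusted p = 8.35e-05). Without replicate 1 of every group but control at CT08, whose males have no number, it was 1.45 and the call was lost (adjusted p = 0.0775). That fit kept control CT08 a. The rhythm of Shmt2 was also called without control CT08 a (adjusted p = 0.0388), and without control CT08 3 that of Shmt1 and Shmt2.

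On MCD a rhythm was called for 4 of 8 members, against 28.2% of genes. Mthfd1l was at 2.77, 3.95, 7.48, 10.8, 2.93 and 2.36 CPM from CT00 to CT20, so that the highest means fell at CT08 and CT12 as on control (amplitude 1.06, peak CT 9.67, adjusted p = 0.0017, edgeR's quasi-likelihood test). Tyms peaked at CT 11.7 with a 1.56-fold range (adjusted p = 0.00163), with group means between 5.42 CPM at CT00 and 8.31 CPM at CT12. Shmt2 peaked at CT 12.2 with a 1.43-fold range (adjusted p = 0.00414). Mthfd2 peaked later than the other 3, at CT 18.6, with a 3.09-fold range (adjusted p = 0.00863), and its means ran from 1.74 CPM at CT08 to 6.92 CPM at CT20. All 4 calls held without any single library, but 1 to 2 were left when a replicate number was left out. The Mthfd1l call was lost without replicate 1 or 2 of every group but control at CT08 (adjusted p = 0.0746 and 0.117, edgeR's quasi-likelihood test). The Mthfd2 call was lost in the fit with no sex term (adjusted p = 0.103, same test).

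The change of rhythm between the diets was called for none of the 8 members (4.87% of genes, edgeR's quasi-likelihood test), so the members called on one diet alone are not shown to differ. Mthfd2 and Tyms had an unadjusted p under 0.05 for this difference (adjusted p = 0.125 and 0.0582). DESeq2 called Tyms (adjusted p = 0.0207) and limma-voom no member. Tyms was also called without control CT00 3, control CT08 a, MCD CT12 1 or MCD CT16 1.

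Sex was called for 1 of 8 members in liver (9.44% of genes, 4.27% with lower levels in females). This was Mthfd2, which was 2.20-fold lower in females (log2 −1.14 ± 0.22 SE, adjusted p = 0.00115, edgeR's quasi-likelihood test). On control, the 12 male livers had 0.629 to 6.50 CPM (median 2.22) and the 6 female livers 0.562 to 1.14 CPM (median 0.644). On MCD the males had 1.83 to 10.2 CPM (median 5.13) and the females 1.43 to 5.76 CPM (median 2.44). The female lay below both males in 11 of 12 groups of diet and time, although the ranges of the sexes overlapped on both diets. Without control CT08 a or control CT08 3, Shmt2 was called for sex as well.

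A sex-by-diet difference in liver was called for none of the 8 (1.77% of genes, edgeR's quasi-likelihood test), while Mthfd1, Mthfd2 and Aldh1l1 had an unadjusted p under 0.05. For Aldh1l1, females went from 1509.7 ± 261 CPM on control to 590.5 ± 145 on MCD (SD, n = 6 each) and males from 1180.2 ± 246 to 765 ± 161 CPM (n = 12 each). The difference of the log2 changes, female minus male, was −0.74 ± 0.22 (SE, adjusted p = 0.0866). DESeq2 called it (adjusted p = 0.021) and limma-voom called no member. It was also called with library totals in place of TMM scaling (adjusted p = 0.00948), without control CT08 a (0.0467) and without MCD CT12 3 (0.0483). For Mthfd2 the difference was 0.95 (adjusted p = 0.298).

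In SCN, none of the 7 members was called for diet (adjusted p of 1 for each, edgeR's quasi-likelihood test), none had an unadjusted p under 0.05, and DESeq2 and limma-voom called none. Calls were rare among all genes, 10 of 15759 or 0.0635% (48 by DESeq2, 19 by limma-voom). The 95% intervals give the changes that remain compatible with the data. For Mthfd1, at 35.2 ± 4.52 CPM on control and 34.6 ± 3.72 on MCD (SD, n = 18 each), the 95% interval of the log2 change ran from −0.12 to 0.08. Aldh1l1 was at 46.9 ± 3.98 and 49.7 ± 5.37 CPM (−0.01 to 0.18), and Mthfd2 at 25.5 ± 5.25 and 23.4 ± 3.65 CPM (−0.23 to 0.01).

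The remaining members had wider intervals in SCN. Mthfd1l was at 9.96 ± 4.43 CPM on control and 10.8 ± 4.20 on MCD (SD, n = 18 each; 95% interval of the log2 change −0.03 to 0.30), and Shmt2 at 11.3 ± 2.58 and 10.8 ± 2.21 CPM (−0.23 to 0.12). Aldh1l2 was at 3.76 ± 1.16 and 4.26 ± 1.11 CPM (−0.09 to 0.48). Tyms was at 3.22 ± 0.898 and 3.19 ± 1.37 CPM (−0.53 to 0.42). One female MCD library at CT04 is listed at 0 Tyms counts in the gene table, in a total of 25.26 M counts, but the exon-bin files hold at least 16 Tyms reads in every MCD library of SCN, so the 2 deposited sources differ for it and the 0 is not taken as an absence. Without it the log2 change of Tyms was 0.05 (−0.05 with it), not called in either fit. At single times 0 of 7 members were called at each of the 6 times by edgeR, DESeq2 or limma-voom (0.0444% of genes by edgeR at CT04, 0.00635% at CT00, CT16 and CT20 and 0% at CT08 and CT12), and 1, Mthfd1l at CT04, had an unadjusted p under 0.05. Over the 18 libraries of each diet the ranges overlapped for all 7 members, and 0% of genes were fully separated. Astrocyte markers, a list that includes Aldh1l1, summed to 2200.4 to 2961 CPM on control and 2241 to 3136 CPM on MCD, with 0 of 6 called, and 0 of 5 oligodendrocyte markers were called (1140.2 to 1907 and 944 to 1862 CPM).

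**Figure D5:**
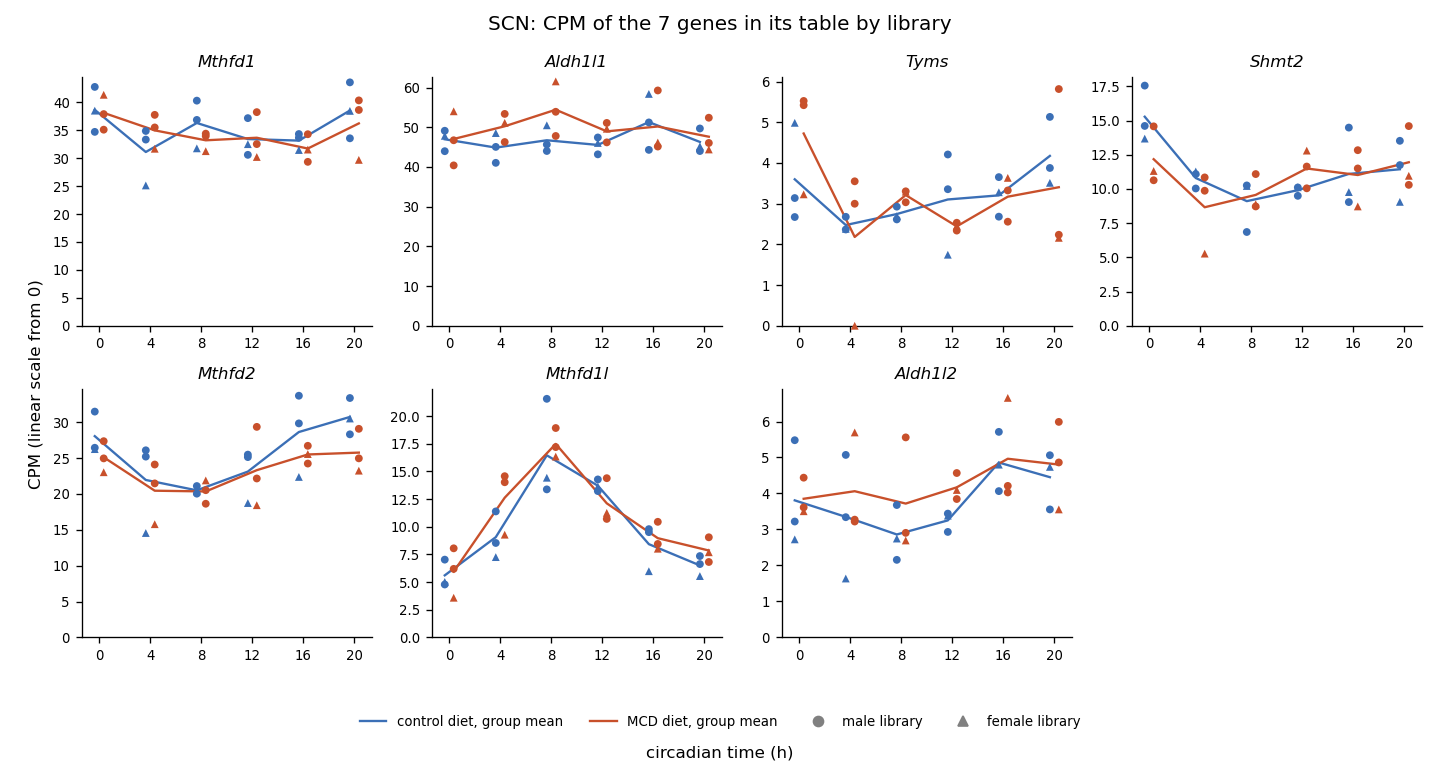
CPM of the 7 genes in each SCN library against circadian time in h (blue control, orange MCD, circles males, triangles females), where lines join group means of 3 libraries. The lines of the diets run close together for each gene, Mthfd1l has its highest means at CT08 on both diets (16.5 CPM on control, 17.5 on MCD), and 1 MCD library of Tyms lies at 0.

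A 24 h rhythm in SCN was called for 2 of 7 members on control (15.1% of genes) and 1 of 7 on MCD (16.1%). Limma-voom called 3 on control, the third being Shmt2 (adjusted p = 0.0261, against 0.0867 by edgeR's quasi-likelihood test), which edgeR also called without replicate 3 of every group (0.0408). Mthfd1l was called on both diets. On control its means from CT00 to CT20 were 5.61, 9.06, 16.5, 13.7, 8.43 and 6.51 CPM. The MCD means were 5.94, 12.6, 17.5, 12.1, 8.97 and 7.85 CPM. Its peak lay at CT 9.78 with a 2.89-fold range on control (adjusted p = 4.52e-07, edgeR's quasi-likelihood test) and at CT 8.99 with a 2.50-fold range on MCD (adjusted p = 4.87e-06). With all libraries Mthfd1l was thus called as rhythmic in both tissues and on both diets, with the highest means at CT08 or CT12 in each. Both liver calls were lost without replicate 1 of every group but control at CT08, which kept its 3 libraries. The 3 libraries at the peak and at the trough did not overlap in SCN: on control they were at 13.4, 14.4 and 21.6 CPM at CT08 and at 4.78, 5.01 and 7.03 CPM at CT00.

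Mthfd2 was called on control in SCN, with a peak at CT 19.6 and a 1.54-fold range (adjusted p = 0.00289, edgeR's quasi-likelihood test), and its means were lowest at CT08 (20.5 CPM) and highest at CT20 (30.7 CPM). On MCD its 1.31-fold range was not called (adjusted p = 0.08), though it was without control CT04 3, MCD CT08 3 or MCD CT12 1. The difference in rhythm between diets was called for 0 of 7 members by edgeR, DESeq2 and limma-voom, with 0 at an unadjusted p under 0.05 and 0.0127% of genes called by edgeR.

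Sex was called in SCN for 2 of 7 members (9.89% of genes). Mthfd2 was lower in females by a log2 change of −0.25 ± 0.07 (SE, adjusted p = 0.0177, edgeR's quasi-likelihood test), with the female below both males in 8 of 12 groups. Mthfd1l was lower by −0.34 ± 0.09 (adjusted p = 0.0184), with the female below both males in 7 of 12. Neither was called without the library MCD CT04 3, with adjusted p of 0.051 for Mthfd2 and 0.0501 for Mthfd1l. With library totals Mthfd1 was called too (−0.17, adjusted p = 0.036). A sex-by-diet difference was called for 0 of 7 members by edgeR, DESeq2 and limma-voom, with 0 at an unadjusted p under 0.05, and for 0% of genes by edgeR.

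The diet effect was compared directly between the tissues in the model of all 72 libraries, which treats liver and SCN libraries as independent, although the labels do not say which came from the same mouse. It differed for 6 of 7 members (34.7% of 14491 genes). The log2 change in liver minus that in SCN was 2.07 ± 0.24 for Mthfd1l, 1.92 ± 0.24 for Aldh1l2 and 1.44 ± 0.21 for Mthfd2 (SE, adjusted p of 3.78e-07 or below, edgeR's quasi-likelihood test). It was −0.97 ± 0.13 for Aldh1l1 and −0.50 ± 0.09 for Mthfd1 (adjusted p of 6.77e-06 or below). For Shmt2 it was −0.32 ± 0.10 (adjusted p = 0.0119), and this call was lost with library totals (−0.17, adjusted p = 0.158). It was also lost without replicate 1 or 2 of every group but control at CT08 (adjusted p = 0.118 and 0.0598) and without replicate 3 of every group (0.0595). Tyms was not called (0.29, 95% interval −0.17 to 0.75, adjusted p = 0.353).

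Exon usage, the share of a gene's reads in each of its exon bins, was tested by diet for a change within the genes. In liver 34 libraries had complete files. Both control males at CT00 were left out, so that this group held 1 female library. There 1 of 8 members was called (3.87% of 14108 genes, diffSpliceDGE of edgeR). In Aldh1l1, bin 39 rose relative to the rest of the gene by 0.53 on the log2 scale (adjusted p = 2.15e-05 for the gene, Simes method of edgeR's diffSpliceDGE). Scaled by library totals without TMM, the bin itself was at 3.18 CPM on control and 3.29 CPM on MCD. Library totals shifted liver changes upward relative to TMM, so these values cannot show whether the bin fell on the TMM scale. The relative change shows only that any fall was smaller than that of the rest of the gene. The call was lost without replicate 2 of every group (adjusted p = 0.628) and with an F test over all bins (adjusted p = 1). Mthfd2 was not called (adjusted p = 0.0981), but was without replicate 2 (0.0371), and Tyms was called by the F test alone (0.0258). In SCN 0 of 7 members were called (0.0458% of 15275 genes), with 0 at an unadjusted p under 0.05 and 0 by the F test.

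Other genes of the pathway were examined in liver by lists. In the one-carbon entry list, the liver enzymes that feed the folate pool from choline, sarcosine and histidine, 4 of 6 genes fell, none rose and 2 were not called (median log2 −0.52, against 0.02 for all genes). Of all genes 21.2% fell and 25.3% rose, the shares against which each list count below is to be read. These shares and counts depend on the scaling. With library totals in place of TMM, chosen as an alternative after seeing the data, 7.61% fell and 52.5% rose, and 4 of 6 fell in this list (median −0.26). Uroc1, an enzyme of histidine breakdown, fell by 0.68 ± 0.07, Ftcd, which passes the histidine carbon to folate, by 0.65 ± 0.05, and Sardh (sarcosine dehydrogenase) by 0.57 ± 0.09 on the log2 scale (SE, adjusted p of at most 1.17e-05, edgeR's quasi-likelihood test). Of the 4 genes of the mitochondrial glycine cleavage system, all were called lower with TMM scaling (median −0.25) and none was called with library totals (median 0.00). Amt was at −0.33 with TMM and −0.07 with library totals, Gcsh at −0.28 and −0.03, and Gldc at −0.22 and 0.032. In serine synthesis, which supplies the substrate of Shmt1 and Shmt2, 2 of 3 rose and none fell (3 of 3 rose with library totals). The list's median of 1.35 is the value of Phgdh, which averaged 0.305 CPM and was not called (adjusted p = 0.096, edgeR's quasi-likelihood test). Psat1 went from 3.03 ± 2.50 to 10.4 ± 3.21 CPM (SD, n = 18 each; log2 2.06) and Psph from 4.22 ± 1.27 to 5.29 ± 1.83 CPM (log2 0.28).

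Of the folate uptake and retention genes 2 of 6 rose, 2 fell and 2 were not called (median 0.06), shares near the 25.3% and 21.2% of all genes, and with library totals 4 rose and none fell. The reduced folate carrier Slc19a1 rose (log2 0.56). The proton-coupled carrier Slc46a1 (−0.32) and the polyglutamate synthase Fpgs (−0.31) were called lower with TMM but not with library totals (both −0.06). Mthfd2l, the mitochondrial paralog of Mthfd2, was likewise called lower with TMM (−0.33) but not with library totals (−0.07), and Mtrr, which reactivates methionine synthase in the methyl branch, rose by 0.35 on the log2 scale. In purine synthesis 1 of 6 rose, 1 fell and 4 were not called (median 0.07), which is no more than among all genes (46.6% called): Paics fell (−0.46), Adsl rose (0.25) and Pfas was at 0.11 (not called). With library totals 5 of 6 rose, Pfas among them (0.36), and Paics fell (−0.20).

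In the list of thymidylate and DNA replication genes 13 of 16 rose, 2 fell and 1 was not called (median 0.69), against 25.3% of all genes that rose, and with library totals 14 rose and 1 fell, against 52.5%. Cdk1 (1.75), Mcm5 (1.71) and Ccna2 (1.67) had the largest log2 changes of genes of at least 1 CPM, all from control means of 2.82 CPM or less. In the ATF4 list, a transcription factor of the amino acid stress response and genes known to respond to it, 12 of 13 rose, none fell and 1 was not called (median 2.69), also against 25.3%, and with library totals 13 of 13 rose. Fgf21 (log2 4.56), Atf3 (3.78) and Nupr1 (3.29) had the largest changes of genes of at least 1 CPM, and Slc7a11, which averaged 0.922 CPM, had 4.83. ATF4 is also known to act on Psat1, Mthfd2 and Aldh1l2, which is background here and was not tested. In SCN 0 of the 49 genes of the 8 pathway lists that were tested were called by edgeR's quasi-likelihood test, and 3 had an unadjusted p under 0.05.

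The genes whose pattern over the 12 liver group means of diet and time was most like each member's were found among 13842 genes of at least 1 CPM. Pearson's r was 0.982 between Shmt1 and Pygl and 0.981 with Uqcrb, 0.995 between Mthfd1 and 1300017J02Rik and 0.99 with Ttc39c, and 0.99 between Aldh1l1 and Gnmt and 0.983 with Fxyd1. It was 0.977 between Shmt2 and Tk1 and 0.969 with Acaa2, and 0.909 between Tyms and each of Dnajc9 and Gstp1. It was 0.952 between Mthfd2 and Sp2 and 0.944 with Sstr2, 0.965 between Mthfd1l and Cyp2a4 and 0.961 with Itpr3, and 0.981 between Aldh1l2 and Rflnb and 0.979 with Tuba8. These are descriptions over 12 points that share their libraries and the diet contrast, with no test. No member was among another member's nearest genes.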

How the data were processed

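Polyadenylated RNA was sequenced from liver and SCN (72 libraries). Per the labels, the submitters' processing notes name Trimmomatic, HISAT2, StringTie, DESeq2 and the build GRCm39, without roles. The gene tables hold whole-number read counts per gene that the authors deposited without normalization, 1 table per tissue, and separate deposited files hold counts per exon bin. How reads on overlapping genes or strands were counted is not given in the sources used here. Every column was used (0 columns of no sample). Groups follow the diet, time and tissue in the labels, each with 3 mice. The 2 males of the control group at CT08 have unnumbered columns in each table.

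CPM values use trimmed-mean (TMM) scaling, apart from those of exon bins, which use library totals. Genes passing filterByExpr (minimum count 10) were fitted with edgeR 4.0.16 (R 4.3.3) by the robust quasi-likelihood F test, per tissue, with 12 groups and sex as terms, and p-values were Benjamini-Hochberg adjusted over all genes tested (threshold 0.05). Rhythms were tested as 24 h cosine and sine contrasts of the 6 time means. The standard error is the log2 change over the square root of F, and 95% intervals are 1.96 standard errors either side. Exon usage used diffSpliceDGE with Simes p-values per gene. In liver 34 exon-bin files were used, since 2 end early. Scripts were tested on simulated data.

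Alternatives were library totals and DESeq2 size factors for scaling, no or a stricter count filter, DESeq2 1.42.0, limma-voom (limma 3.58.1), no sex term, a replicate block, the kind of liver library as a term, and leaving out replicates or single libraries. Control CT08 a and control CT08 b have no number, so the gene fits without replicate 1 or 2 kept both. Same-numbered libraries of the 2 diets were not paired by their values (5 of 16 correlations over 0.1 in liver, 3 of 16 in SCN). The members and lists were chosen with earlier results of these data known. All members are named, and of each pathway list the up to 3 genes with the largest diet effect in liver among those of at least 1 CPM. The counts of 1 pathway list and 1 of its genes are not reported here. For likeness, the 2 genes with the highest Pearson r to each member over the 12 liver group means are named (log2 CPM, prior count 2). The values with and without control CT08 a, within kinds of library and of the lists under other scalings were chosen after seeing the data.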

Additional observations from a re-analysis of the deposited data

Results flagged for a closer look

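The effect of MCD differed between liver and SCN for 6 of the 7 members in both tables, by a test of the difference itself (edgeR's quasi-likelihood test, adjusted over all 14491 genes, 34.7% of which were called). The log2 change in liver minus that in SCN was 2.07 for Mthfd1l, 1.92 for Aldh1l2, 1.44 for Mthfd2, −0.97 for Aldh1l1, −0.50 for Mthfd1 and −0.32 for Shmt2. The Shmt2 call was lost with library totals (−0.17, adjusted p = 0.158). It was also lost without replicate 1 or 2 of every group but control at CT08 (adjusted p = 0.118 and 0.0598) and without replicate 3 of every group (0.0595).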

How the results depend on the processing

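Over 209 member results and their alternatives, 8260 values kept their side of the threshold, 206 lost a call, 59 gained one and 0 changed direction of a call. Direction was compared only where a value was called, and rhythm amplitudes and exon usage have none. Values without a call could change sign, as Shmt2 did at CT08 in liver (−0.25 to 0.15 over the single libraries left out). All 8 liver diet calls held without any single library and with each other scaling, filter and tool. Library totals moved the median of all genes in liver from 0.02 to 0.27 and the split of calls from 5130 higher and 4296 lower to 10633 and 1540; the members' log2 changes were then −0.65 (Shmt1), −0.12 (Shmt2), −0.26 (Mthfd1), −0.62 (Aldh1l1), 1.61 (Mthfd2), 2.45 (Mthfd1l), 2.37 (Aldh1l2) and 0.51 (Tyms), each called, and Shmt2 and Mthfd1 each lost 3 of their 4 calls at single times. Among list genes, Gldc went from −0.22 to 0.032 (not called) and the glycine cleavage genes called lower from 4 to 0. The cause of the changes below was not tested, apart from the smaller number of libraries where some are left out.

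DESeq2 called 2 members at CT08, 7 at CT16, 1 for a difference in rhythm and 1 for sex by diet in liver. Library totals gave 1 for sex by diet in liver, and for sex in SCN library totals gave 3 and limma-voom 1. Replicate numbers do not pair the libraries by their values. The block could be fitted only without control CT08 a and control CT08 b, which have no number, so 2 choices changed at once and CT08 kept 1 control. With the replicate block, 2 members were called at CT08, 7 at CT16 and 2 for rhythm on control in liver, and 1 for rhythm on control in SCN, where Mthfd2 had an adjusted p of 0.149 (edgeR's quasi-likelihood test).

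Replicate 1, 2 or 3 was left out of every group in turn, apart from 1 and 2 in control at CT08, whose males have no number and were kept. The counts of members called in liver were then 0 to 1 at CT00, 0 to 5 at CT04, 0 to 5 at CT12, 0 to 1 at CT16 and 0 to 2 at CT20, 0 to 1 for rhythm on control and 1 to 2 for rhythm on MCD. Without replicate 1 or 2 it was 0 for sex in SCN; leaving out the females permits no test of sex. Without each single library, they were 1 to 7 at CT00, 4 to 6 at CT04, 0 to 5 at CT08, 3 to 8 at CT12, 1 to 6 at CT16 and 2 to 7 at CT20, 1 to 3 for rhythm on control, 0 to 1 for a difference in rhythm, 1 to 2 for sex and 0 to 1 for sex by diet in liver. In SCN they were 2 to 3 for rhythm on control, 1 to 2 for rhythm on MCD and 0 to 3 for sex.

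Counts over all genes moved by more than 1.5 times in cases that include the following. Over the single libraries left out, the liver counts ran from 1229 to 3059 at CT00, 1994 to 4249 at CT04 and 37 to 1212 at CT08. They ran from 1249 to 3810 at CT12, 1140 to 3160 at CT16 and 1238 to 2845 at CT20. For sex by diet in liver they ran from 229 to 497, and for sex in SCN from 771 to 2377. Library totals gave 3971 calls at CT00 (2550), 6475 at CT12 (3081), 4162 at CT16 (2532) and 3560 at CT20 (2288), with the reported count in parentheses. At CT08 (263), DESeq2 gave 651 and the fit with no sex term 140. For a difference in rhythm in liver (986), DESeq2 gave 2060 and the block 651, and for sex by diet in liver (359) DESeq2 gave 741. For diet in SCN (10), DESeq2 gave 48, limma-voom 19, no sex term 6 and the block 4. The block gave 1248 for rhythm on control in SCN (2378), and DESeq2 7 for a difference in rhythm there (2). For exon usage in liver (546), the kind term gave 337, the F test 850 and leaving out replicate 2 or 3 gave 299 or 206, and the F test gave 3 in SCN (7). Low counts limit the precision for Mthfd1l, Aldh1l2 and Mthfd2 in liver, with as few as 12, 22 and 29 counts in a control library, and for Tyms in SCN.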
